A study of Homo sapiens with 8 samples.

Results

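The 10 genes EZH1, EZH2, SUZ12, EED, RBBP4, RBBP7, JARID2, MTF2, PHF1 and PHF19 encode subunits of Polycomb repressive complex 2 (PRC2). They were taken by symbol, and all 10 were found among the 16796 genes of the count files. The rule used no measured value, but earlier results of these data were known when the members were chosen. Their mRNA was measured by RNA-seq in LX-2 cells, an established human line of hepatic stellate cells (HSCs) that serves as a model of liver myofibroblasts. Under 5% serum, cells were given for 24 h either DMSO as vehicle (control, 4 libraries) or the small molecule OSMI-1 at 50 µM (OGTi, 4 libraries). OSMI-1 inhibits O-GlcNAc transferase (OGT), the enzyme that attaches O-GlcNAc to nuclear and cytosolic proteins. All libraries came from a single cell line, so they carry no variation between donors.

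PRC2 adds methyl groups to lysine 27 of histone H3, a mark of silenced genes. EZH2 or its paralog EZH1 carries the catalytic SET domain, SUZ12 is the scaffold, EED reads the mark that the complex has made and activates the enzyme, and RBBP4 or RBBP7 binds histones. Accessory subunits define forms of the complex. The Polycomb-like proteins PHF1, MTF2 and PHF19 belong to PRC2.1 and JARID2 and AEBP2 to PRC2.2, and both sets help to bring the enzyme to chromatin. EZH2 is typical of dividing cells, in which E2F factors drive its transcription, while EZH1 is also present in resting cells. OGT has a known link to this system, since EZH2 can itself carry O-GlcNAc and the fly OGT gene is a Polycomb group gene.

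The promoter sequences below are shown for PHF19, the member with the largest change, and for RBBP7, EZH2 and EZH1, which stand for the histone-binding and catalytic subunits. They are the bases before the transcription start that RefSeq lists for each gene (build GRCh38.p14, read 5′ to 3′ on the strand of the gene), of which 30 bases of EZH2 and 9 of EZH1 next to the start were left out because another transcript has an exon there. Capitals mark GC box letters (GGGCGG, or CCGCCC on the other strand) and CCAAT box letters (CCAAT, or ATTGG), and neighbouring GC boxes overlap in EZH2 and RBBP7.
PHF19, chr9:120868912-120869161, minus strand: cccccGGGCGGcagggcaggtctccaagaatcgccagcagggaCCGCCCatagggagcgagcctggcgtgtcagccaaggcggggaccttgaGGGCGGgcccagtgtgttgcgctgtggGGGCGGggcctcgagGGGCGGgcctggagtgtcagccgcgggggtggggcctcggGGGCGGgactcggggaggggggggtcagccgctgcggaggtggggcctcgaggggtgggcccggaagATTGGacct
RBBP7, chrX:16870363-16870612, minus strand: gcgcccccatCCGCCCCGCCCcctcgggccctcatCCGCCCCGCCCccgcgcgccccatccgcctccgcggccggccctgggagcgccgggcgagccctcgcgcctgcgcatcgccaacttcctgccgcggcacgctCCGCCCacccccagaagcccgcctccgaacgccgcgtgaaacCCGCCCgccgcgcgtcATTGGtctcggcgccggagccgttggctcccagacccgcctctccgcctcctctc
EZH2, chr7:148884322-148884541, minus strand: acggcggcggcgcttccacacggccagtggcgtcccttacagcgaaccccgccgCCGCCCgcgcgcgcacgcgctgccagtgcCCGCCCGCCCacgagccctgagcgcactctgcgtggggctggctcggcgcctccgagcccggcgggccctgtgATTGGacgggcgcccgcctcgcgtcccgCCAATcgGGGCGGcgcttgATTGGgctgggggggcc
EZH1, chr17:42745050-42745290, minus strand: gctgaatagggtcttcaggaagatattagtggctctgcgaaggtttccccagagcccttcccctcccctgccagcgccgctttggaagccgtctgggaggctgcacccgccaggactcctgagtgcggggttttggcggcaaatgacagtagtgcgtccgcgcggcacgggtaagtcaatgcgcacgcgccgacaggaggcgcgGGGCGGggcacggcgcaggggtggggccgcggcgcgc
The printed stretch held 6 GC boxes and 1 CCAAT box for PHF19, 6 and 1 for RBBP7, 4 and 3 for EZH2, and 1 and 0 for EZH1. The PHF19 start lies within the introns of longer PHF19 transcripts and is 1 of several starts of the gene. Over the window of 300 bases around the listed start, GC box letters were present in 8 of the 10 members and in 69.2% of 10915 genes with an adjusted p, and CCAAT letters in 7 of the 10 members and in 36.4% of those genes.

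E2F sites are shown because E2F factors are known to act on this complex. The letters searched on both strands were TTTCCCGC, TTTGGCGC and TTTCGCGC, and capitals mark the match in each stretch of 30 bases, which for MTF2 lies on the other strand.
EZH2, chr7:148884272-148884301, minus strand: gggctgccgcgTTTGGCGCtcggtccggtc
SUZ12, chr17:31936807-31936836, plus strand: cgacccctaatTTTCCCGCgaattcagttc
MTF2, chr1:93079277-93079306, plus strand: accggcagtccGCGGGAAAccaaaatggcg
The match lay at bases 2 to 9 after the start in EZH2, at -189 to -182 in SUZ12 and at 6 to 13 in MTF2. Only these 3 of the 10 members held E2F letters in the window, against 4.53% of the genes with an adjusted p and 2.79% of all 27305 promoters in the table. The CHR letters TTTGAA, found in many promoters of mitotic genes, occurred in SUZ12 alone (9.79% of genes with an adjusted p), and the TEAD letters GGAATG in EED alone (10.9%). PHF19 held none of the E2F, CHR or TEAD letters, which says only that these letters are not in this window.

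The libraries held 24166756 to 28201215 counts, and 12829 to 13180 genes reached at least 10 counts. The treatment lowered the mRNA of OGT itself (log2 fold change of OGTi over control of -0.45 ± 0.09, where ± is the standard error for fold changes and the SD over 4 libraries for counts, levels and shares) and of OGA, whose product takes O-GlcNAc off again (-1.80 ± 0.09). Of 10 stellate cell markers, 9 had an adjusted p, of which 7 were called lower and 1 higher, against 24% and 22.7% of all genes with an adjusted p. The summed normalized count of these markers was 219059 to 247662 in control and 166237 to 198312 in OGTi libraries. COL1A1 (40479 to 85553 counts) and VIM were abundant, but DES, also a marker of this lineage, had 0 to 4 counts. Several defining markers of other liver cells were near 0, with 0 to 1 counts of APOA1, 0 to 3 of KRT19, 0 to 10 of PTPRC, 1 to 9 of CSF1R and of PECAM1, and 0 to 5 of KDR. ALB, APOB, TTR, CYP3A4, HNF4A, EPCAM and STAB2 were not found among the 16796 genes of the count files. Of 6 hepatocyte markers, only APOA1 could therefore be read. CD68 (lysosomal, 2568 to 10182 counts) rose (1.25 ± 0.08), as did SOX9 (0.35 ± 0.11), while KRT7 (32 to 127 counts, -1.05 ± 0.26) and CDH5 (1 to 48 counts, -3.31 ± 0.62) fell, and CD14 (41 to 92 counts) was not called. CD68, SOX9, KRT7 and CDH5 were the called genes among 12 macrophage, bile duct and endothelial markers. Of these markers only 4, 2 and 2 in turn had an adjusted p, and 46.6% of all genes with an adjusted p were called. The part of these 4 called genes in the PRC2 results was not tested.

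OGT inhibition did not move the PRC2 genes in 1 direction. PHF19 fell by 67.3%, JARID2, RBBP7 and EZH2 fell by smaller amounts, PHF1 and EZH1 rose, and SUZ12, EED, RBBP4 and MTF2 did not pass the test. In the DESeq2 test across all genes, with libraries paired by replicate and a call at an adjusted p (q) of 0.05 or lower, 6 of the 10 members were called, where 46.6% of the 14028 genes with a q were called. The 4 members called lower (PHF19, RBBP7, JARID2 and EZH2) compare with 24% of all genes, and the 2 called higher with 22.7%. All 10 members passed the filter on low counts, at 462 to 9529.7 normalized counts (counts divided by the size factor of the library). The median log2 fold change of the members was -0.13, against 0.00 over all genes with a q, and the median absolute change was 0.23 against 0.31. A bulk library cannot tell fewer cells with a transcript from less transcript per cell.

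**Figure D1:**
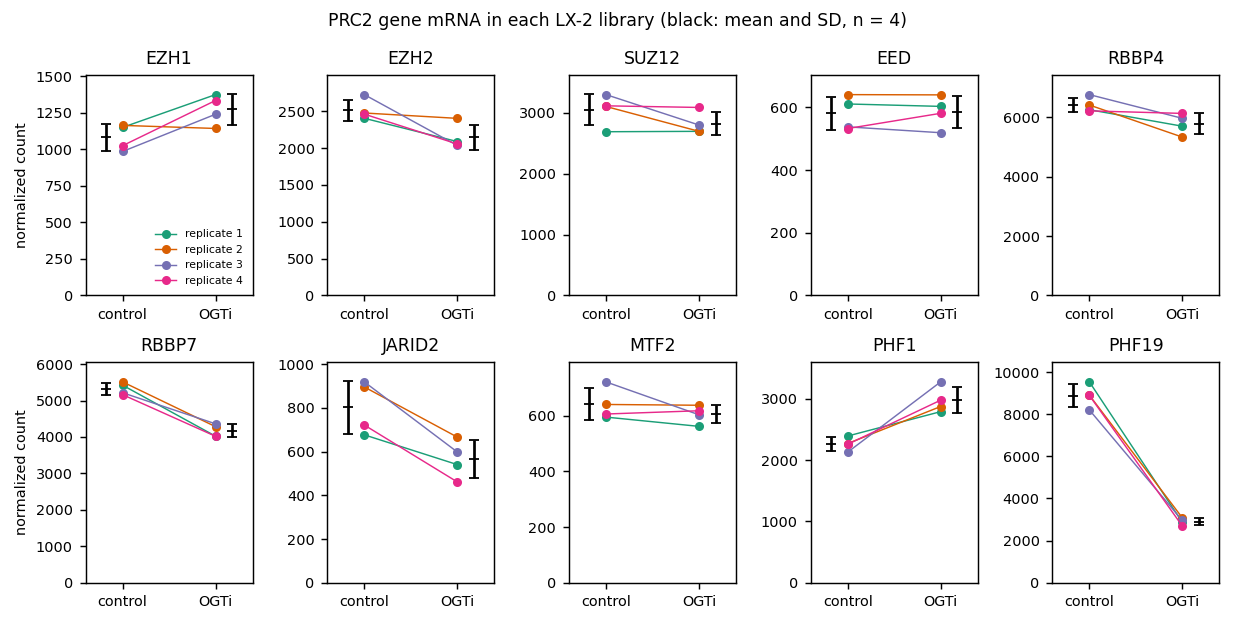
Normalized counts (y axis, from 0) of the 10 PRC2 genes in control and OGTi libraries. Coloured points are libraries, lines join the control and OGTi library of the same replicate, and black bars give mean and SD (n = 4). PHF19 went from 8198 to 9529.7 in control libraries to 2697 to 3086 in OGTi libraries, whereas the EED points of both groups lay between 519 and 641.

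The Polycomb-like accessory genes diverged most. PHF19 (chromosome 9, 120855651 to 120894896, minus strand) encodes a reader of methylated lysine 36 of histone H3 that helps PRC2 to enter active chromatin. Its normalized count was 9529.7, 8898, 8198 and 8885 in control replicates 1 to 4 and 2873, 3086, 2959 and 2697 in OGTi replicates 1 to 4. The groups were far apart, and every OGTi library was lower than every control library by more than the spread within either group. The log2 fold change was -1.61 ± 0.07 (DESeq2 q of 6.21e-102), a 3.06-fold fall that was seen in 4 of 4 pairs. Only 4.48% of genes with a q were called and at least 2-fold lower, and among the 14028 genes with a q PHF19 had the 322nd lowest fold change and the 21st largest Wald statistic in size. Leaving out any replicate kept the log2 fold change between -1.66 and -1.57.

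PHF1 (chromosome 6, 33410399 to 33416453), a paralog whose Tudor domain also reads methylated lysine 36, moved the other way. It had 2394, 2271, 2131 and 2259 normalized counts in control replicates 1 to 4 and 2791, 2875, 3276 and 2978 in OGTi replicates 1 to 4. The lowest OGTi library was above the highest control library. The log2 fold change was 0.39 ± 0.08 (DESeq2 q of 1.45e-05), with a rise in 4 of 4 pairs. MTF2 (chromosome 1, 93079235 to 93139079), the third Polycomb-like gene, binds unmethylated CpG-rich DNA. Its counts were 595, 641, 722 and 606 in control and 562, 638, 604 and 618 in OGTi replicates 1 to 4. These ranges overlapped, and the change was not called (-0.08 ± 0.11, DESeq2 q of 0.587, 95% interval of -0.30 to 0.14).

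The make-up of this trio therefore differed between groups. Per kilobase of the longest annotated coding transcript, PHF19 made up 64.9% ± 0.74 of the summed Polycomb-like level in control and 32.3% ± 1.83 in OGTi libraries (SD, n = 4 each). PHF1 made up 30.3% ± 0.09 in control and 60.8% ± 1.97 in OGTi libraries, and MTF2 4.79% ± 0.66 and 6.87% ± 0.38. The share of PHF19 fell and that of PHF1 rose under either transcript length, but which of them led the OGTi libraries depended on it. With the longest transcript PHF1 was above PHF19 in 4 of 4 OGTi libraries. With the median transcript length, an alternative added for these shares after the data were seen, it was above in 0 of 4, PHF19 made up 86.2% ± 0.33 in control and 61.6% ± 2.004 in OGTi libraries, and PHF1 12.4% ± 0.13 and 35.6% ± 1.99. The ratio of PHF19 to MTF2 counts, which needs no scaling for depth, was 11.4 to 16.0 in control and 4.36 to 5.11 in OGTi libraries, a log2 difference of -1.53. The ratio of PHF1 to MTF2 was 2.95 to 4.02 in control and 4.51 to 5.43 in OGTi libraries, a log2 difference of 0.48. For both, the exact permutation test (two-sided) gave 0.0286, which is the lowest p reachable with 4 libraries a group. Adjustment over the 4 ratios tested raised it to 0.0571, so neither passed the correction, although 4 of 4 pairs shared the direction.

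**Figure D2:**
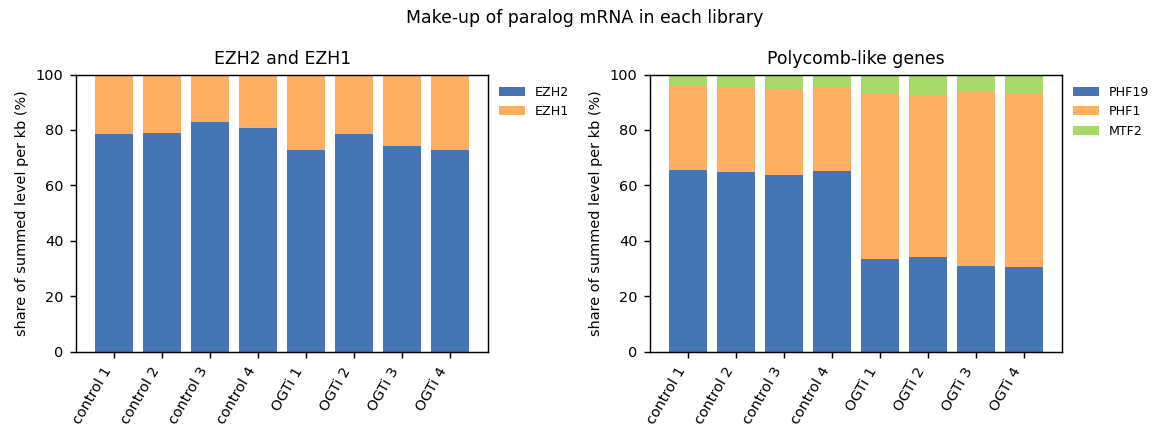
Share (%) of EZH2 and EZH1 (left) and of PHF19, PHF1 and MTF2 (right) in their summed level per kilobase of the longest coding transcript, 1 bar per library. PHF19 held 63.9% to 65.6% of the Polycomb-like level in the control libraries and 30.7% to 34.3% in the OGTi libraries.

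JARID2 (chromosome 6, 15246069 to 15522042) encodes the PRC2.2 subunit that tethers the complex to chromatin and stimulates it. Its normalized counts were 677, 896, 919 and 722 in control and 541, 667, 599 and 462 in OGTi replicates 1 to 4. The groups did not overlap, although the highest OGTi library lay just below the lowest control library. The log2 fold change was -0.50 ± 0.11 (DESeq2 q of 2.18e-05), lower in 4 of 4 pairs. AEBP2, its partner in PRC2.2, fell from 623 ± 62.8 to 468 ± 34.9 normalized counts (-0.41 ± 0.12, DESeq2 q of 0.00258). Both genes of PRC2.2 were thus lower, where among the Polycomb-like genes 1 fell and 1 rose.

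Of the accessory genes outside the 10 members, LCOR and LCORL, which encode PALI proteins of PRC2.1, fell as well (-0.44 ± 0.12 and -0.41 ± 0.13, DESeq2 q of 0.000894 and 0.00434). EPOP, which links PRC2.1 to Elongin, was not called (0.11 ± 0.15, DESeq2 q of 0.583). Over AEBP2 and these 3 genes the median was -0.41 on the log2 scale. Of the 4, 3 were called lower and 0 higher, against 24% and 22.7% of all genes with a q. Without replicate 2 or without replicate 3, only 1 of the 4 was called.

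The catalytic subunits moved in opposite directions by small amounts. EZH2 (chromosome 7, 148807257 to 148884321, minus strand) had 2403.4, 2475, 2725 and 2459.8 normalized counts in control and 2088, 2402.7, 2035 and 2056 in OGTi replicates 1 to 4. The groups only just failed to overlap, because OGTi replicate 2 was close to control replicate 1, while the other OGTi libraries were clearly lower. The log2 fold change was -0.23 ± 0.08 (DESeq2 q of 0.0156), lower in 4 of 4 pairs. The call was lost when replicate 3 was left out (-0.17, with 0.159 as the DESeq2 q) and when replicate 4 was (-0.22, with 0.0970).

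EZH1 (chromosome 17, 42700275 to 42745049, minus strand) had 1149.6, 1163, 985 and 1024 normalized counts in control and 1374, 1142, 1239 and 1333 in OGTi replicates 1 to 4. The ranges overlapped, and replicate 2 did not show the rise of the other 3 pairs. The log2 fold change was 0.24 ± 0.10 (DESeq2 q of 0.0371). The call of EZH1 was lost when replicate 1 (0.23, with 0.109 as the DESeq2 q), replicate 3 (0.20, with 0.187) or replicate 4 (0.19, with 0.243) was left out, and in edgeR without pairing (0.24, with 0.0510).

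The ratio of EZH2 to EZH1 counts was 2.09, 2.13, 2.77 and 2.40 in control and 1.52, 2.104, 1.64 and 1.54 in OGTi replicates 1 to 4. It was lower in 4 of 4 pairs, by -0.47 on the log2 scale on average, but OGTi replicate 2 lay within the control range. The exact permutation test (two-sided) gave 0.0571 before and after adjustment over the 4 ratios, so the difference did not pass the test. Per kilobase, EZH2 made up 80.2% ± 2.02 of the summed catalytic subunit level in control and 74.6% ± 2.76 in OGTi libraries, and with the median transcript length 68.6% ± 2.75 and 61.3% ± 3.52, so EZH2 was the main catalytic subunit mRNA in both groups under either length.

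The scaffold gene SUZ12 (chromosome 17, 31937007 to 32001038) had 2686, 3100.04, 3295 and 3111 normalized counts in control and 2692, 2693, 2797 and 3084 in OGTi replicates 1 to 4. Control replicate 1 lay at the level of the lowest OGTi libraries. The change was not called (-0.11 ± 0.08, DESeq2 q of 0.244, 95% interval of -0.27 to 0.04). EED (chromosome 11, 86201212 to 86278813) had 611, 641, 538 and 533 in control and 603, 639.8, 519 and 581 in OGTi replicates 1 to 4. The groups lay on top of each other (0.01 ± 0.11, DESeq2 q of 0.936), and the 95% interval of -0.20 to 0.23 bounds the change that these libraries could have missed.

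The histone-binding paralogs are also subunits of the NuRD and SIN3 complexes, and RBBP4 is a subunit of CAF-1. RBBP7 (chromosome X, 16839283 to 16870362, minus strand) had 5420.5, 5511.5, 5214 and 5161 normalized counts in control and 4023, 4284, 4362 and 4019.9 in OGTi replicates 1 to 4. The groups were well separated, and RBBP7 was lower in 4 of 4 pairs (log2 fold change of -0.35 ± 0.07, with a q of 1.74e-06 in DESeq2). RBBP4 (chromosome 1, 32651142 to 32686211) had 6255, 6413, 6764 and 6217 in control and 5701, 5335, 5966 and 6131 in OGTi replicates 1 to 4. Its groups did not overlap and it was lower in 4 of 4 pairs, but the change missed the threshold (-0.15 ± 0.07, DESeq2 q of 0.0664, unadjusted p of 0.0324). The ratio of RBBP4 to RBBP7 counts was 1.15 to 1.297 in control and 1.25 to 1.53 in OGTi libraries, a log2 difference of 0.20 that did not pass the test (exact permutation p of 0.0571 before and after adjustment). RBBP4 had fractional expected counts in 4 of 8 libraries and MTF2 in 2, where reads were shared with other genes, and the other members had none.

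Across the 10 members, 5 had OGTi counts below all control counts (PHF19, JARID2, RBBP7, RBBP4 and EZH2) and 1 above (PHF1). Over the genes with a q, 20.2% had all OGTi counts lower and 19.8% all higher, 40% in sum.

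**Figure D3:**
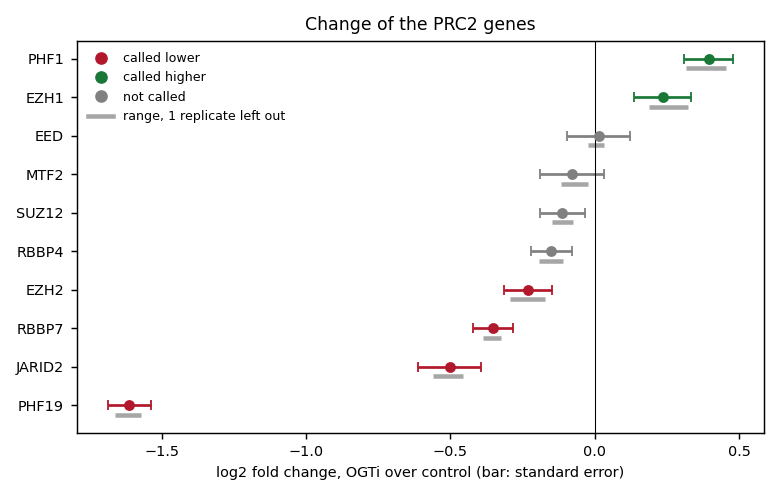
Log2 fold change of OGTi over control (x axis) for each PRC2 gene, with its standard error from DESeq2 (n = 4 pairs). Red is called lower, green called higher and grey not called, and the thick grey line is the range with each replicate left out in turn. PHF19 stands at -1.61, and the other 9 genes lie between -0.50 and 0.39.

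To order the members by level, normalized counts per kilobase of the longest coding transcript were compared. In control cells RBBP7 (2335 ± 73.0) and PHF19 (2139.8 ± 131) were the most abundant, and their ranges overlapped. PHF1 (1000.3 ± 47.5) and EZH2 (948 ± 53.8) followed with overlapping ranges, then RBBP4 (813 ± 31.6), SUZ12 (678 ± 57.2), EED (278 ± 25.7) and EZH1 (233 ± 19.3), each below the range of the one before. MTF2 (157 ± 14.03) and JARID2 (134 ± 20.3) were the least abundant, again with overlapping ranges. In OGTi cells PHF19 (699.8 ± 39.4) had rank 5, behind RBBP7 (1829 ± 77.6), PHF1 (1317 ± 93.6), EZH2 (808 ± 65.1) and RBBP4 (734 ± 44.1), and its range overlapped that of RBBP4. The order rests on the transcript length chosen, which matters most for RBBP4, PHF19 and RBBP7.

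The other Polycomb genes were read from lists chosen from general knowledge. PRC1 is the complex that ubiquitinates histone H2A and compacts chromatin that PRC2 has marked. Among its 20 genes, the test called 10 falls and 2 rises. Over the 14028 genes with a q, a fall was called in 24% and a rise in 22.7%. The 20 PRC1 genes had a median log2 fold change of -0.23. The falls with the largest statistics were those of SCMH1 (-0.89 ± 0.09), RING1 (-0.51 ± 0.09), a catalytic ubiquitin ligase, and PHC1 (-0.37 ± 0.08). PHC2, a Polyhomeotic paralog of PHC1, was among those that rose (0.63 ± 0.08), while both RING1 and its paralog RNF2 (-0.56 ± 0.15) fell. The paralogs PHC1 and PHC2 went in opposite directions, with PHC1 at 2650.2 ± 106 and 2059.9 ± 180 normalized counts and PHC2 at 3976 ± 329.7 and 6153 ± 272 in control and OGTi cells (DESeq2 q of 1.39e-05 and 2.79e-15). Of the demethylases that remove the PRC2 mark, neither KDM6A (-0.13 ± 0.10, DESeq2 q of 0.268) nor KDM6B (-0.03 ± 0.10, q of 0.834) was called.

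Of 13 partners of RBBP4 and RBBP7 in NuRD, a complex that remodels and deacetylates chromatin, and in the chromatin assembly factor CAF-1, 10 were called lower and 0 higher. This stands against 24% and 22.7% of all genes with a q. The median log2 fold change of the partners was -0.28, and without replicate 4 only 7 of them were called. MBD3 (-0.51 ± 0.07), MTA3 (-0.75 ± 0.11) and CHD3 (-0.39 ± 0.07) had the largest statistics. The log2 fold changes of the partners ran from -0.75 to 0.04, and that of RBBP7 (-0.35) lay within this wide range. So did that of RBBP4 (-0.15), which was not called.

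Genes on which PRC2 is known to act moved in both directions, although more HOX genes were called lower than higher. Of 14 genes that are known from other cells as repressed by EZH2, 10 had a q, and 3 of these fell and 4 rose (median log2 fold change of -0.06). The cell-cycle inhibitor CDKN2B rose from 1021 ± 156 to 1479 ± 132 normalized counts (0.54 ± 0.09, DESeq2 q of 6.63e-08), and KLF2 (0.56 ± 0.10) and SLIT2 (0.31 ± 0.08) rose as well. CDKN2A, which neighbours CDKN2B, was abundant and fell slightly (-0.20 ± 0.07, DESeq2 q of 0.00778), DAB2IP fell (-0.61 ± 0.08), and PPARG fell from 49.1 ± 18.9 to 11.0 ± 5.6 normalized counts. Of the 39 HOX genes, classical Polycomb targets that set position along the body axis, 33 had a q, 12 were called lower and 3 higher, and the median log2 fold change was -0.17. Over all genes with a q, 24% were called lower and 22.7% higher. Without replicate 4, 10 HOX genes were called.

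EZH2 is tied to cell division, so division markers are given beside it. The counts of calls below stand against 24% of all genes with a q called lower and 22.7% called higher. All 14 markers of G2 and mitosis were called lower, with a median log2 fold change of -0.82, and their summed normalized count was 110243 to 136950 in control and 67423 to 78890.2 in OGTi libraries. Of 14 S phase markers, 11 were called lower and 1 higher, with a median of -0.23 and sums of 67536 to 73006 and 58377 to 62584. Without replicate 2 or without replicate 4, 6 of these S phase markers were called. Of the 11 genes of the E2F and RB family, 7 were called lower and 1 higher, with RBL1 (-0.66 ± 0.08) and RB1 (-0.31 ± 0.07) lower and E2F7 (0.40 ± 0.09) higher, and without replicate 2 and in edgeR without pairing the family had 5 calls. The change of EZH2 (-0.23) lay near the S phase median and that of PHF19 (-1.61) was larger than that of any listed division marker, the largest of which was AURKA (-1.35 ± 0.08). The part of a shift in cell division in the PRC2 changes was not tested.

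**Figure D4:**
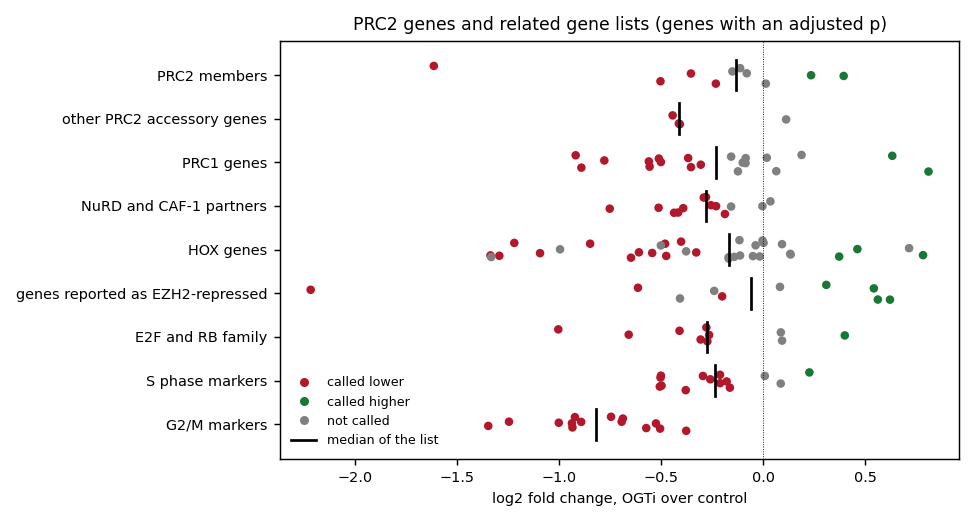
Log2 fold change of OGTi over control (x axis) for the PRC2 genes and for related lists, 1 point per gene with an adjusted p, red for called lower, green for called higher, grey for not called, and a black bar for the median of the list. PRC2 genes had a median of -0.13, PRC1 genes of -0.23 and G2/M markers of -0.82.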

How the data were processed

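RNA was measured in 8 libraries of LX-2 cells (4 control, 4 OGTi), grouped by their titles. The authors aligned paired-end reads to hg38 with Bowtie2 2.3.5.1 and counted them per gene with RSEM 1.3.1, and the deposited files hold expected counts, not scaled for depth, in which reads with several alignments are shared between genes. A deposited table of the authors' own comparison (DESeq2 1.36.0: mean, log2 fold change, statistic, p-values) was not used. Expected counts were rounded, genes with a total under 10 were left out, and 14895 genes were fitted by DESeq2 1.42.0 (Wald test, R 4.3.3) with replicate as a block, as in the study's methods. The adjusted p (q) is Benjamini-Hochberg over all genes with a q. Standard errors come from the model, SDs are over 4 libraries, and intervals are Wald intervals at 95%.

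Replicate numbers pair independent experiments in the study's methods. Deviations from the group mean correlated between same-numbered libraries at 0.372, 0.391, 0.165 and 0.327 for replicates 1 to 4 over 10994 genes. Control replicate 3 was closer to OGTi replicate 4 (0.343), and OGTi replicate 3 to control replicate 4 (0.255).

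Alternatives were DESeq2 without the block, edgeR 4.0.16 with and without it, TMM factors, other count filters, counts rounded down and each replicate left out. Ratios of members were compared with two-sided exact permutation tests over 70 splits. The scripts were tested on simulated data. Positions and transcript lengths are from GENCODE 44 (GRCh38), promoters from RefSeq (GRCh38.p14), matched by symbol for 10 of 10 members. The CCAAT, GC box and TEAD letters were chosen after the sequences were seen. Genes named are the 10 members, OGT, OGA, and from each list up to 3 called genes with the largest Wald statistic in each direction. EPOP, KDM6A, KDM6B, RNF2, CD14, 6 HOX genes and the markers given by their counts were named outside this rule, after their values were seen. Some genes that the lists count are not reported here by name. The members and lists were chosen with earlier results of these data known.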

Additional observations from a re-analysis of the deposited data

Results flagged for a closer look

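In each group of 4 libraries, the gap between an extreme library and its nearest neighbour was set against the range of the group, for the members, OGT, OGA and the 4 ratios. Of 32 groups, 1 passed the 95% critical value of the Dixon test, and chance flags about 1 in 20. EZH2 stood at 2403 normalized counts in OGTi replicate 2 while the remaining OGTi replicates held 2035 to 2088, so that this gap took a share of 0.856 of the range. The same library had the highest summed G2/M marker count of its group, 78890.2 against 67423 to 74039, and it had the lowest EZH1 count of its group. Its S phase sum was not the highest, at 61691.9 against 62584 in OGTi replicate 3. Nor was its E2F and RB family sum, 23622.9 where the group ran from 22328.3 to 26796.6. A link of this value to cell division was not tested. Without replicate 2 the log2 fold change of EZH2 was -0.29 (DESeq2 q of 0.0138) and that of EZH1 0.32 (q of 0.0159).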

How the results depend on the processing

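Of 110 fold changes of members under alternatives, 103 kept their direction and their side of the threshold, 6 lost the call (EZH1 in 4, EZH2 in 2) and 1 changed sign, that of EED, which ran from -0.0238 (without replicate 4) to 0.0310 (without replicate 3) and was never called. The cause of these changes was not tested. Leaving out the replicate block changed no call of a member in DESeq2 (6 called), but with edgeR without the block EZH1 was not called, so that 1 member instead of 2 was called higher. With 1 replicate left out, 4 to 6 members were called, 3 to 4 lower and 1 to 2 higher, and 5127 to 5690 genes in all. The log2 ratios PHF19/MTF2 and PHF1/MTF2 kept their direction, at -1.64 to -1.46 and 0.34 to 0.53 with 1 replicate left out, where 3 against 3 libraries cannot give a p below 0.1. With the replicate block (sign flips of the paired differences, exact p of 0.125, the smallest 4 pairs allow) they were -1.53 and 0.48. With the median in place of the longest transcript length, the control level per kilobase was 452 for EZH1, 333 for EED, 7270.2 for RBBP4, 6576 for RBBP7, 1479.5 for PHF1 and 10299 for PHF19. The median length is the shorter of the 2, for example 882 against 7883 bases for RBBP4 and 862 against 4149 for PHF19.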

Other observations

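Polycomb complexes keep the HOX clusters silent outside their domains. Over all genes with a q, 46.6% were called, 24% lower and 22.7% higher. Of 8 HOXA genes with a q, 5 were called lower (HOXA3, HOXA4, HOXA7, HOXA10 and HOXA11) and 1 higher (HOXA5), with a median log2 fold change of -0.66. HOXA3 fell from 203 ± 21.3 to 84.1 ± 20.5 normalized counts (-1.29 ± 0.21, DESeq2 q of 6.67e-09), and HOXA5 was at 64.8 ± 16.8 and 111 ± 21.0 (0.78 ± 0.27, q of 0.00913). Of 9 HOXB genes, 2 were called lower and 2 higher, the latter HOXB4 (0.37 ± 0.12) and HOXB6 (0.46 ± 0.11). Of 9 HOXC genes 2 were called lower and 0 higher, and of 7 HOXD genes 3 were called lower (HOXD9, HOXD10 and HOXD11) and 0 higher. The difference between clusters was not tested.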
